A study of Mus musculus with 84 samples.

Results

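The step that leads from committed hematopoietic progenitor cells (HPC) to pre-granulocyte-monocyte progenitors (pGM) in newborn control mice was covered by 7 of the series' 84 RNA-seq libraries. The libraries were taken by their labels: pGM libraries W2P, W3P and W5P were set against HPC libraries W2H, W3H, W4H and W5H, over all mouse genes. Both populations came from neonatal liver at P0, the day of birth. The mice were labelled as genotype wild type and as given no dox, that is, no doxycycline, the drug that controls the tetracycline-regulated MLL-ENL transgene of the series, and the note fetal induction stands on these controls as on their MLL-ENL counterparts. Identifiers W2, W3 and W5 occur in both populations and W4 only in HPC here. Further sets of libraries with no sample in common were used to place the step: 4 pGM and 4 HPC libraries of P0 MLL-ENL mice, also from neonatal liver without doxycycline; 4 pGM and 4 HPC libraries of 10 week wild type controls; and 4 pGM and 4 HPC libraries of the 10 week wild type controls that belong to the MLL-ENL (x2) set. Both 10 week sets came from bone marrow without doxycycline, so age and tissue cannot be told apart. The surface gates, the promoter that drives the transgene and whether an identifier is 1 animal or a pool were not stated in the labels, so p-values measure the spread between these libraries.

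Progenitors in the liver of a newborn mouse are still making the blood of the animal while the bone marrow takes over. HPC are committed progenitors downstream of the stem cell, and pGM are an early stage of the myeloid branch, ahead of the granulocyte-monocyte progenitor (GMP) that yields neutrophils and monocytes. Along this branch the stem cell transcription factors are turned down, and the genes for the primary (azurophil) granule, the first granule that a future neutrophil builds, are turned on under the factors C/EBPα and PU.1.

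The 7 libraries held 11.57 to 16.09 M counts each and 17623 to 18910 genes with at least 1 count, and 0.91 to 2.24% of the counts lay on mitochondrial genes. Reads on the human transgene numbered 0 to 8 per library. As a check of the labels, Kit, the receptor for stem cell factor on blood progenitors, stood at 427 to 588 CPM in pGM and 481 to 663 CPM in HPC (CPM, counts scaled by TMM to a common library total, the unit of all levels below unless another is named). The T cell gene Cd3e had 4 counts, and the NK cell gene Ncr1 and the neutrophil gene Ly6g 0 counts, in all 7 libraries together. These 3 do not stand for their lists: 16 of 20 T and NK cell genes and 15 of 16 genes of later neutrophil granules had enough counts to be tested. Lck lay at 39.6 to 80.7 CPM in pGM and 90.2 to 106 CPM in HPC, and S100a8 at 4.37 to 58.5 CPM and 1.87 to 26.3 CPM. Cd8a and Eomes, like Cd3e and Ncr1, were too low to test. Genes of mast cells, dendritic cells and eosinophils were present and are given below. The libraries of W2 and W4 held both Xist and Y-linked transcripts (in W2, Xist at 58.95 CPM in pGM and 45.8 CPM in HPC, beside Ddx3y at 51.85 and 39.64 CPM in the same libraries, without TMM scaling).

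The HPC library W2H stood apart from the other 3 on a score of the step. On this score, built from genes called in the independent 10 week controls of the MLL-ENL (x2) set (the mean log2(CPM + 1) of 382 genes higher in pGM minus that of 531 genes lower in pGM), the pGM libraries lay at 1.11, 0.77 and 0.94, and the HPC libraries at -0.46 for W2H and between -1.30 and -1.17 for W3H, W4H and W5H. W2H was the HPC library nearest to pGM in 54.7% of the genes called higher. Among the genes called lower W2H (36.7%) and W4H (34.7%) were nearest about equally often. Results that lean on it, or on the pGM library W3P, are given below with and without it.

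At FDR 0.05 in edgeR's quasi-likelihood test, 528 of 14743 genes tested were higher in newborn pGM than in HPC (3.58%) and 834 were lower (5.66%). With a fold of at least 2 as a further filter, 414 were higher (2.81%) and 632 lower (4.29%). The median log2 fold change over all genes tested was 0.00. Azurophil granule and early neutrophil, erythroid and early B cell genes made up the groups with most members higher. MHC class II, dendritic cell, mast cell and stem cell genes made up those with most members lower, as the plot of list members shows. Without W3P 881 genes were called in place of 1362, and without W5P 902; without W2H there were 1330.

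**Figure D1:**
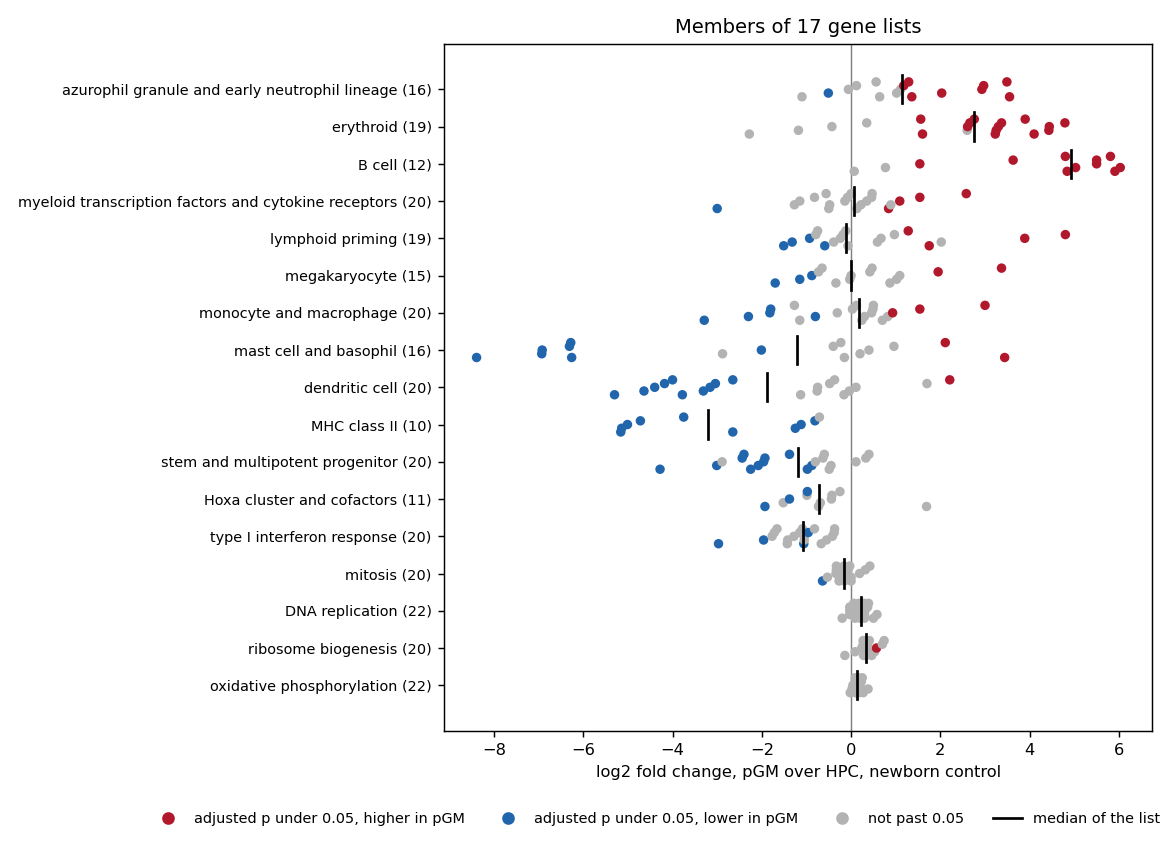
Log2 fold change of newborn control pGM over HPC (x axis) for each tested member of 17 gene lists (rows, number of members tested in brackets). Each point is 1 gene, red where it was higher and blue where it was lower in pGM at an adjusted p under 0.05, grey otherwise; black bars are list medians, which run from 4.94 for B cell genes to -3.20 for MHC class II genes, while the cell cycle, ribosome and respiration lists stay near 0.

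Genes of the azurophil granule and the early neutrophil lineage, taken as 1 list and called the azurophil granule list below, were in part higher in pGM. The list is thus wider than the granule proteins themselves. Of 16 genes tested, 8 were higher and 1 lower, with a median log2 fold change of 1.14, against 3.58% and 5.66% of all genes. Mpo, the peroxidase that makes hypochlorous acid in neutrophils, stood at 10454, 9600 and 16235 CPM in pGM W2, W3 and W5, against 3990, 2846, 2119 and 2918 CPM in HPC W2, W3, W4 and W5 (log2 fold change 2.03 ± 0.31 SE, adjusted p = 2.9e-05). Each pGM library lay above every HPC library. Ctsg, the serine protease cathepsin G, stood at 252, 185 and 322 CPM in pGM, against 76.1, 11.5, 21.7 and 19.8 CPM in HPC (2.97 ± 0.41, adjusted p = 8e-06). The groups did not overlap, and W2H was the HPC library nearest to pGM: without it the log2 fold change of Ctsg was 3.85. Elane, neutrophil elastase, was at 105, 231 and 698 CPM in pGM and at 31.6, 10.2, 14.7 and 61.7 CPM in HPC (3.55 ± 0.79, adjusted p = 0.0025), with W5 highest in both populations. Prtn3, proteinase 3, differed less, at 840, 942 and 974 CPM in pGM and 383, 370, 448 and 299 CPM in HPC (1.29 ± 0.26, adjusted p = 0.00083). Hp (haptoglobin, 2.93 ± 0.52), Ms4a3 (a membrane protein of granulocyte-monocyte progenitors, 3.49 ± 0.69), Cst7 (cystatin F, 1.36 ± 0.22) and Nkg7 (1.18 ± 0.25) were the other 4, with adjusted p from 8.3e-05 to 0.0018. Ctsc, the protease that activates the granule proteases, was the 1 member lower in pGM (-0.51 ± 0.16, adjusted p = 0.045). The other 7 passed in neither direction, among them Prss57 (0.56 ± 0.26, adjusted p = 0.21) and Bpi (-1.10 ± 0.72, adjusted p = 0.44). The summed level of the list ran from 15779 to 23355 CPM in pGM and from 6320 to 7835 CPM in HPC, and Mpo was its most abundant member in every library of both groups. In bulk RNA of a sorted population, fewer cells of a type and less RNA per cell cannot be told apart, here and in all results below.

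The promoters of Mpo and of the 3 protease genes that carry this result are printed as the 250 bases before the transcription start, from RefSeq on GRCm38.p6, 5′ to 3′ on the strand of the gene. Capitals mark GAGGAA, the core of the PU.1 motif, or its reverse complement TTCCTC. The C/EBP motif TTNNGNAA had no match in any of the 4.
Mpo chr11:87793534-87793783 (+): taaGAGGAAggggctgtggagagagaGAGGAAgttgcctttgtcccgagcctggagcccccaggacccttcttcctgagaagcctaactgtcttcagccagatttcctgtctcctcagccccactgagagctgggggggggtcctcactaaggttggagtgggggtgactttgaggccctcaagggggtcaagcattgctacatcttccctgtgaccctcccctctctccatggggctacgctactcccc
Elane chr10:79886062-79886311 (+): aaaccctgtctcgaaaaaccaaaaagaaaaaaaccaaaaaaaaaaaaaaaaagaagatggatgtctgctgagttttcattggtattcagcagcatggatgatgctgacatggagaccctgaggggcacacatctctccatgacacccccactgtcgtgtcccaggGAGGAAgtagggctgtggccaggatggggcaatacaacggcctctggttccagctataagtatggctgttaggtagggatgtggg
Prtn3 chr10:79879417-79879666 (+): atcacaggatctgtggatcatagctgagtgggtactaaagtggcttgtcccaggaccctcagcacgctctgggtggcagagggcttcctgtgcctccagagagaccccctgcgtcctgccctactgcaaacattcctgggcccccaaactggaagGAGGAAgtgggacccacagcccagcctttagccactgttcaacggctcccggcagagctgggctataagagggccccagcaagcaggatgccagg
Ctsg chr14:56102575-56102824 (-): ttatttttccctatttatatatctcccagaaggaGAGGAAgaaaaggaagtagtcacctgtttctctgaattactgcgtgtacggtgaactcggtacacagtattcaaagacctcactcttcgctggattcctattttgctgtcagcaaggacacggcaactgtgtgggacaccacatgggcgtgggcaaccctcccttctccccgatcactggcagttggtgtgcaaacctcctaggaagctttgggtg
All 4 held a match on the strand of the gene, and Mpo held 2. Of the 7 higher genes of this list with a window, 5 held GAGGAA, while Nkg7 and Cst7 did not, and 2, Ms4a3 and Cst7, held TTNNGNAA. Over windows of 250 bases before to 50 bases after the start, with both strands searched, GAGGAA occurred in 37.2% of the 374 genes higher in pGM that have a window, in 39.1% of 621 lower genes and in 30.9% of 10738 genes tested. TTNNGNAA occurred in 38.8%, 42.7% and 36.6% of the same sets. A match is a run of letters and not a measured binding site.

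Among genes of later granules 1 was higher and 1 lower, against 3.58% and 5.66% of all genes. Of 15 tested genes of the specific and gelatinase granules, made at later stages of the neutrophil, Mmp8, a collagenase, was higher in pGM (2.09 ± 0.47, adjusted p = 0.0026) and Padi4 lower (-1.33 ± 0.35, adjusted p = 0.011). With the identifier as a block 2 were lower. The loss of W2H moved Mmp8 to 2.97. Mmp8 was not called with 47 libraries in the fit (adjusted p = 0.13) or with only the compared groups (0.056). Padi4 was no longer called without W3H (adjusted p = 0.053), W2P (0.093) or W5P (0.073). Ltf, lactoferrin, was at 4.25, 1.64 and 43.5 CPM in pGM and 6.21, 10.4, 15.2 and 28.1 CPM in HPC, against a mean of 1000 CPM in newborn control GMP. Among 20 myeloid transcription factors and cytokine receptors 4 were higher and 1 lower (median 0.07), counts that were 2 and 4 with the identifier as a block. Cebpa, which encodes C/EBPα, stood at 13.9, 8 and 17.1 CPM in pGM and 8.61, 6.15, 2.99 and 6.55 CPM in HPC (1.09 ± 0.29, adjusted p = 0.011), so W3P lay below W2H. With the identifier as a block its log2 fold change was 0.84 with an adjusted p of 0.078, and without W5P it was 0.85 with an adjusted p of 0.12. Spi1, which encodes PU.1, was at 24.6, 17 and 16.4 CPM in pGM and 26.5, 14.2, 25.7 and 19 CPM in HPC (-0.14 ± 0.22, adjusted p = 0.81). Myb, a transcription factor of immature progenitors, was higher in pGM (145, 106 and 116 CPM, against 91.1, 60.7, 68 and 53.1 CPM in HPC; 0.84 ± 0.20, adjusted p = 0.0047).

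**Figure D2:**
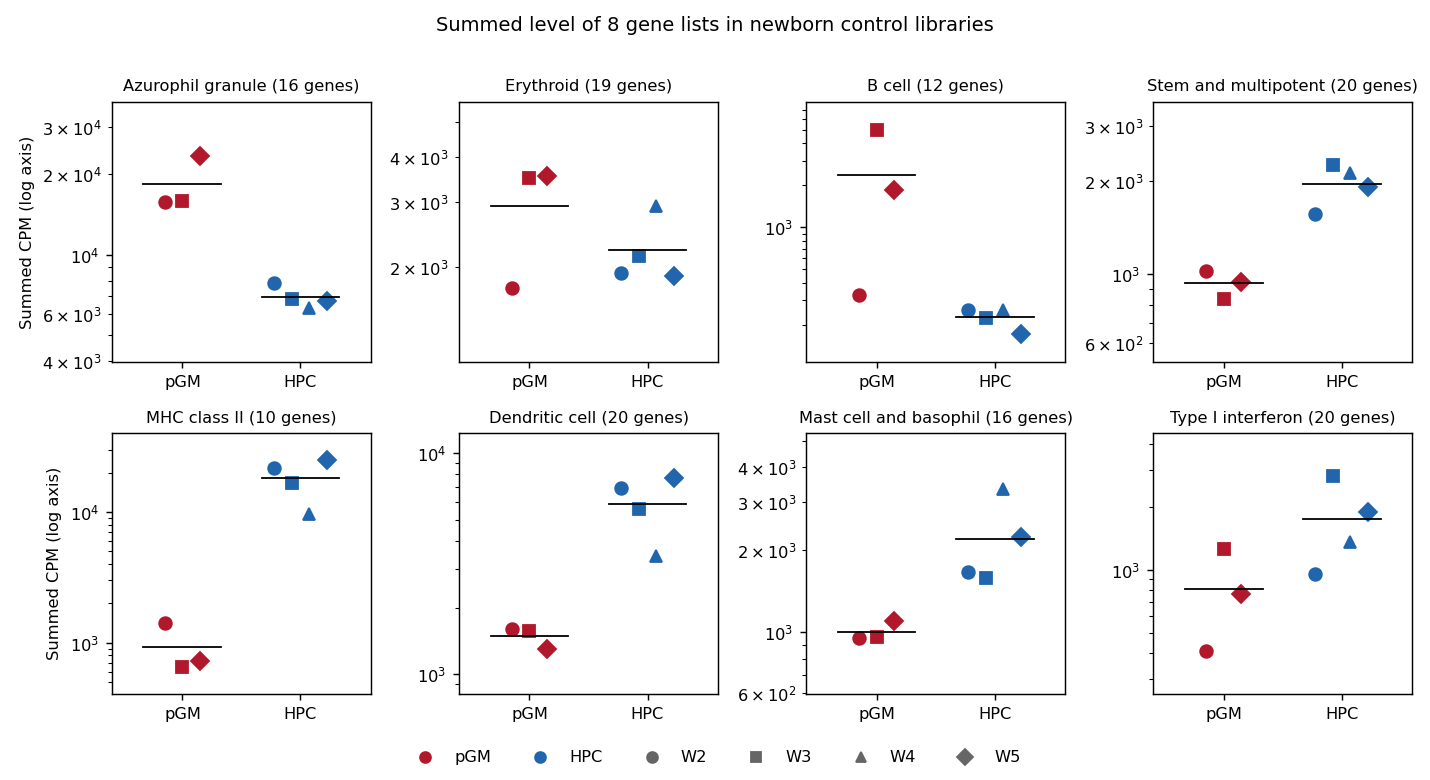
Summed CPM (log axis) of 8 gene lists in each newborn control library, pGM left and HPC right; symbols give the identifier and black lines the group means. Azurophil granule sums lie at 15779 to 23355 CPM in pGM and 6320 to 7835 CPM in HPC, MHC class II sums at 651 to 1408 CPM in pGM and 9709 to 24961 CPM in HPC, and the B cell sums spread over a wide range within pGM.

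Erythroid genes were higher in pGM as well, in 14 of 19 tested (median 2.76) with none lower, or 1 lower with the identifier as a block. Gata1, the master transcription factor of red cell and platelet precursors, stood at 97.8, 112 and 137 CPM in pGM, against 24.8, 4.49, 8.56 and 6.55 CPM in HPC (3.37 ± 0.45, adjusted p = 5.9e-06). Rhag, an ammonium channel of the red cell membrane, was at 61.6, 168 and 215 CPM in pGM and 12.9, 1.45, 2.38 and 4.45 CPM in HPC (4.79 ± 0.72, adjusted p = 2.7e-05). In both genes the groups did not overlap, and W2H was the highest HPC library: without W2H the log2 fold change of Gata1 was 4.15 and that of Rhag 5.78. Blvrb, the biliverdin reductase of red cells, was higher by 2.66 ± 0.36 (adjusted p = 5.5e-06), Epor, the erythropoietin receptor, by 3.30 ± 0.50 (2.9e-05) and Klf1, an erythroid transcription factor, by 3.25 ± 0.73 (0.0029). The most abundant member, Car2, carbonic anhydrase 2, was at 653, 1448 and 1774 CPM in pGM and 1434, 1731, 2294 and 1508 CPM in HPC (-0.43 ± 0.39, adjusted p = 0.62), so the summed list overlapped, at 1745 to 3541 CPM in pGM and 1887 to 2927 CPM in HPC. The alpha globin gene Hba-a1, whose reads may be split with its copy Hba-a2, stood at 45.3, 198 and 117 CPM in pGM and 10.7, 8.02, 18.9 and 13.6 CPM in HPC (3.23 ± 0.86, adjusted p = 0.012). Without W3P the count of higher members was 9 of 19. Whether erythroid precursors within the pGM libraries account for any of this was not tested.

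Of 15 tested megakaryocyte genes 2 were higher and 3 lower (median 0.00). The 2 were Gata1 and Itga2b, which encodes the sorting antigen CD41. Among the 3 were Gp9, a subunit of the von Willebrand factor receptor (27.2, 24.4 and 26.9 CPM in pGM, against 55.4, 49.8, 84.5 and 41.9 CPM in HPC; -1.15 ± 0.23, adjusted p = 0.00084) and Pf4, platelet factor 4 (-1.70 ± 0.50, adjusted p = 0.025). Pf4 was no longer called with the identifier as a block (-1.40, adjusted p = 0.094) or without W4H (adjusted p = 0.06), W5H (0.15), W2P (0.13) or W5P (0.13).

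Early B cell genes were the group with the widest differences, and they rested on W3P and W5P far more than on W2P. Of 12 tested 10 were higher in pGM and none lower (median 4.94), while 6 had no overlap between the groups, against 7.98% of all genes with every pGM library above every HPC library. Igll1, a chain of the surrogate light chain of the pre-B cell receptor, stood at 32.1, 1600 and 534 CPM in pGM W2, W3 and W5, against 8.67, 21.1, 7.39 and 7.05 CPM in HPC (6.03 ± 0.90, adjusted p = 2.3e-05). W3P was highest and W2P lowest among the pGM libraries. Ebf1, the transcription factor that sets the B cell program, followed the same order at 11.5, 353 and 107 CPM in pGM, against 4.98, 9.47, 3.24 and 4.95 CPM in HPC (4.80 ± 0.70, adjusted p = 1.7e-05). Without W3P the log2 fold changes were 4.68 for Igll1 and 3.38 for Ebf1, and 9 members were called. With the identifier as a block they were 5.0 and 3.79, and 7 members were called. Ms4a1, which encodes CD20 of later B cells, stood at 0.25 to 0.527 CPM in pGM and 0 to 0.82 CPM in HPC. The summed list came to 329, 4973 and 1866 CPM in pGM W2, W3 and W5 and to 172 to 255 CPM in HPC. Whether B cell precursors within the pGM libraries account for any of this was not tested.

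Most of the genes with the highest log2 fold changes shared this order. Lef1, a transcription factor of early lymphoid cells, led them at 3.37, 97.6 and 32.8 CPM in pGM, against 0.351, 0.968, 0.672 and 0.336 CPM in HPC (6.23 ± 0.85, adjusted p = 7.7e-06; 4.93 without W3P). Heyl, Vpreb1, Tnfrsf19, Cplx2, Vpreb3, Pou2af1, Cd79a and Vpreb2 followed, at log2 fold changes of 5.43 to 6.06, and lay between 4.01 and 4.62 without W3P. Without W3H, Cplx2 was at 6.88 and Pou2af1 at 6.24. Vpreb1 and Vpreb2 are near copies, and the split of reads between them is uncertain. Among the 528 genes higher in pGM, 195 had W3P above W5P above W2P, and in 79 of these W3P was at least 10 times W2P, 9 of them in the B cell list. Of the 15 genes, Rhag and Ndufa4l2 had W5P above W3P, and in Cldn13 both were close. Cldn13, a claudin, was at 18.7, 59.8 and 57.6 CPM in pGM and 3.81, 0.691, 0.917 and 0.84 CPM in HPC (4.81 ± 0.71, adjusted p = 2e-05; 5.79 without W2H). Ndufa4l2 was at 7.12, 25.4 and 26.4 CPM in pGM and 1.58, 0.553, 0.367 and 0.42 CPM in HPC (4.70 ± 0.64, adjusted p = 1.7e-05; 5.45 without W2H).

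Lymphoid priming genes split, with 4 of 19 higher and 4 lower (median -0.12). Rag1, a subunit of the recombinase that assembles antigen receptors, followed the B cell order at 3.62, 87.2 and 19.9 CPM in pGM and 2.75, 3.32, 1.28 and 2.6 CPM in HPC (3.89 ± 0.65, adjusted p = 0.00014; 2.24 without W3P). Mn1, a transcription cofactor, was lower at 108, 80.1 and 151 CPM in pGM and 259, 302, 223 and 346 CPM in HPC (-1.32 ± 0.33, adjusted p = 0.0069), although without W3P its adjusted p was 0.072. Flt3, the receptor that marks lymphoid-primed progenitors, was at 154, 141 and 85.5 CPM in pGM and 165, 185, 184 and 317 CPM in HPC (-0.75 ± 0.59, adjusted p = 0.56). Of 16 T and NK cell genes 3 were higher, among them the transcription factor Tcf7 (2.29 ± 0.51, adjusted p = 0.0027) and Nkg7, and 1 was lower (median -0.01). Nkg7 is counted in the azurophil granule list as well.

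**Figure D3:**
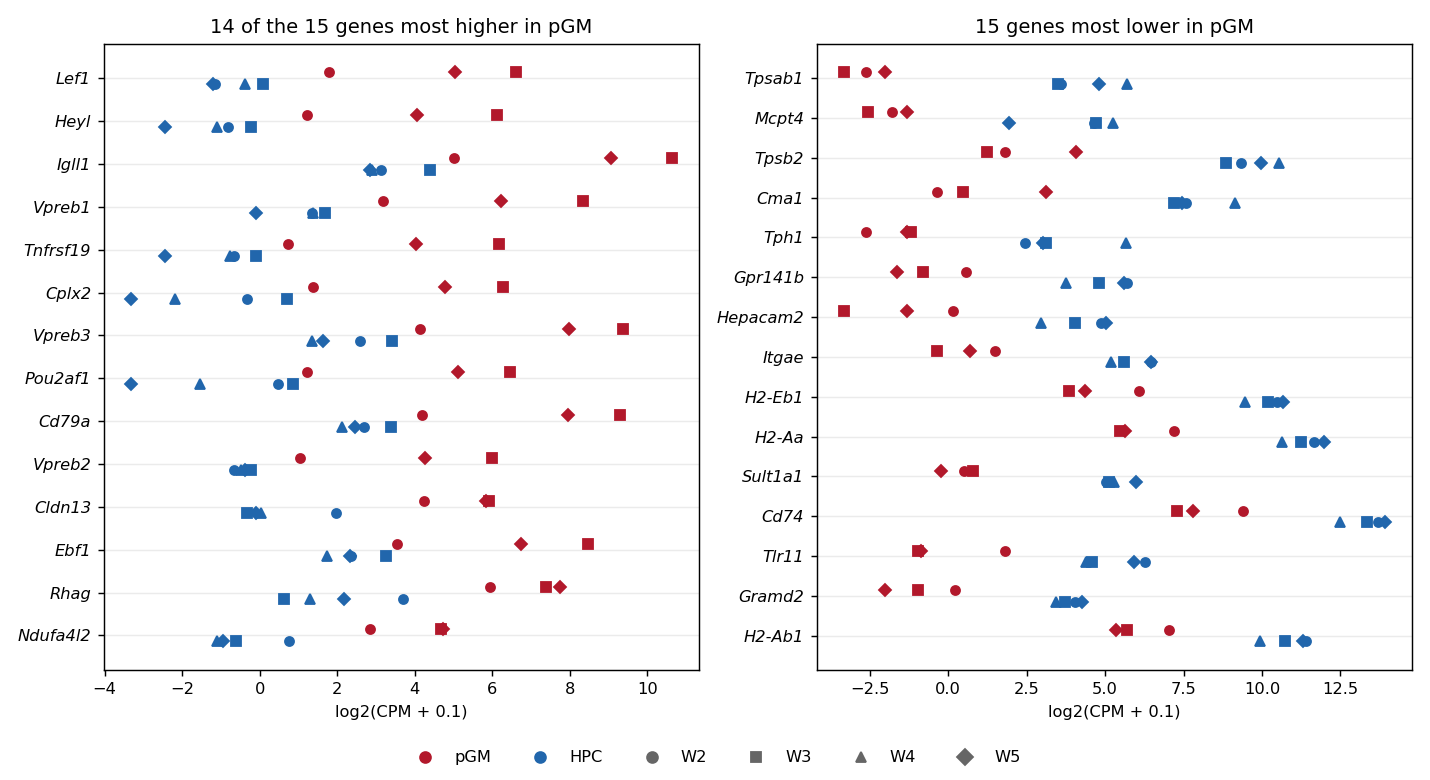
Level of 14 of the 15 genes with the highest (left) and of the 15 with the lowest (right) log2 fold change by the naming rule, as log2(CPM + 0.1) in each newborn control library; pGM is red and above HPC in blue within each gene, and symbols give the identifier. Most genes at left have the W3 square rightmost and the W2 circle leftmost among the red symbols.

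Stem and multipotent progenitor genes were lower in pGM. Of 20 tested 11 were lower and none higher, with a median of -1.18, and 14 had no overlap with pGM lower, against 11.8% of all genes. Hlf, a transcription factor of stem cells, stood at 47.2, 24.1 and 36.6 CPM in pGM, against 128, 184, 149 and 148 CPM in HPC (-2.08 ± 0.22, adjusted p = 9e-08). Mecom, also called Evi1 and needed for stem cell self-renewal, was at 2.68, 3.35 and 3.61 CPM in pGM and 19.6, 29.2, 28.8 and 25.9 CPM in HPC (-3.01 ± 0.35, adjusted p = 4.7e-07). The groups were well apart in both genes. Procr (-2.40 ± 0.35), which encodes the stem cell marker EPCR, Esam (-2.44 ± 0.35), an adhesion molecule, and Robo4 (-2.25 ± 0.48), a guidance receptor, were lower as well, with adjusted p from 1.3e-05 to 0.0017. Gata2 (0.40 ± 0.28, adjusted p = 0.5) and Erg (0.33 ± 0.23, adjusted p = 0.48) did not pass. The list summed to 834 to 1027 CPM in pGM and 1560 to 2242 CPM in HPC, with W2H the lowest HPC library.

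The Hoxa genes and their cofactors, which MLL fusions act on, were lower in pGM in part in these control mice. Of 11 tested 3 were lower and none higher (median -0.73). Hoxa9 stood at 16.6, 10.6 and 8.88 CPM in pGM, against 31.3, 32.9, 35.7 and 25.6 CPM in HPC (-1.38 ± 0.22, adjusted p = 5.9e-05). Hoxa10 was at 2.68, 2.8 and 2.71 CPM in pGM and 7.73, 8.78, 14.8 and 10.4 CPM in HPC (-1.93 ± 0.29, adjusted p = 2.8e-05), and Meis1, the cofactor of both, at 177, 109 and 138 CPM in pGM and 259, 288, 310 and 262 CPM in HPC (-0.98 ± 0.22, adjusted p = 0.0029). No pGM library reached the HPC range in any of the 3. The mouse genes that the fusion joins, Kmt2a (0.26 ± 0.38, adjusted p = 0.79) and Mllt1 (-0.01 ± 0.27, adjusted p = 0.99), did not pass the test.

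MHC class II genes, which present antigen to T cells, were lower in pGM by some of the widest margins measured. Of 10 tested 9 were lower and none higher (median -3.20), all 9 without overlap. Cd74, the invariant chain, stood at 674, 155 and 224 CPM in pGM, against 13365, 10511, 5758 and 15636 CPM in HPC (-5.01 ± 0.68, adjusted p = 5.9e-06). H2-Aa, the alpha chain of I-A, was at 146, 44.4 and 50.1 CPM in pGM and 3262, 2437, 1583 and 4053 CPM in HPC (-5.14 ± 0.65, adjusted p = 2.3e-06), and its partner H2-Ab1 at 132, 52.1 and 40.9 CPM in pGM and 2693, 1686, 986 and 2506 CPM in HPC (-4.72 ± 0.46, adjusted p = 4.1e-08). W2P was the highest pGM library and W4H the lowest HPC library in all 3 genes. Without W2P the log2 fold changes were -5.88 for Cd74, -5.89 for H2-Aa and -5.39 for H2-Ab1. Ciita, the coactivator that switches the class II genes on, was at 5.12, 0.547 and 0.752 CPM in pGM and 57.5, 13.4, 16.4 and 30.1 CPM in HPC (-3.75 ± 0.72, adjusted p = 0.00051). H2-DMa (-1.12 ± 0.22, adjusted p = 0.00063) and H2-DMb1 (-2.65 ± 0.22, adjusted p = 2.4e-09), which load peptides, differed less than the presenting chains.

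The promoters of 2 class II genes are printed in the same way, with capitals at the CCAAT box, bound by NF-Y in the class II promoter, or its reverse complement ATTGG.
H2-Aa chr17:34287824-34288073 (-): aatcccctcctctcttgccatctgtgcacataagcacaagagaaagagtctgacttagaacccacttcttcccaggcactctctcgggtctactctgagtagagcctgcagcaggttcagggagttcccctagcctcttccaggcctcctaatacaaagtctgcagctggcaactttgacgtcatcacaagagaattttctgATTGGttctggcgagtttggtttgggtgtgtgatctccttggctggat
H2-Eb1 chr17:34305617-34305866 (+): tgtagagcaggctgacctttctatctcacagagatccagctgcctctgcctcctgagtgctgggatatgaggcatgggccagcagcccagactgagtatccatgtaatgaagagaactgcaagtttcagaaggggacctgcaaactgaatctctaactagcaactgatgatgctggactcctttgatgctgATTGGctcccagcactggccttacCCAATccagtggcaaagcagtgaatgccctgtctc
All 6 class II genes that were lower and had a window held a CCAAT box, while 42.8% of all genes with a window held one, 41.5% of those lower and 43% of those higher. H2-Eb1, the beta chain of I-E, was lower by -5.16 ± 0.59 (adjusted p = 4.4e-07; -6.12 without W2P).

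Dendritic cell genes moved with the class II genes, with 10 of 20 lower and 1, Irf4, higher (median -1.89). With the identifier as a block none was higher. Cst3, cystatin C, stood at 742, 648 and 565 CPM in pGM, against 4799, 3924, 2288 and 5394 CPM in HPC (-2.65 ± 0.23, adjusted p = 2.6e-09). Xcr1, a chemokine receptor of type 1 conventional dendritic cells, was at 2.62, 0.342 and 0.527 CPM in pGM and 53, 6.5, 4.77 and 11.6 CPM in HPC (-4.00 ± 0.85, adjusted p = 0.0017). Clec9a, the receptor of these cells for dead cells, was at 3.5, 0.342 and 0.527 CPM in pGM and 50.2, 22.2, 12.8 and 40.5 CPM in HPC (-4.40 ± 0.90, adjusted p = 0.0016). In both genes W2 was the highest library of each population. Itgae, which encodes CD103, was lower by -5.30 ± 0.69 (adjusted p = 3.2e-06), Naaa by -4.64 ± 0.62 (5.4e-06; -5.79 without W2P), Batf3, a transcription factor that this cell requires, by -3.04 ± 0.65 (0.0021) and Itgax, which encodes CD11c, by -3.31 ± 0.72 (0.0019). Id2, a transcription regulator of dendritic and innate lymphoid cells, is not counted in this list. It was the 1 lower member of the list of myeloid transcription factors and cytokine receptors. Id2 was at 182, 143 and 154 CPM in pGM and 1294, 1101, 850 and 1854 CPM in HPC (-3.00 ± 0.39, adjusted p = 4.1e-06). Siglech (0.11 ± 0.57, adjusted p = 0.95) and Tcf4 (-0.04 ± 0.24, adjusted p = 0.96), both of plasmacytoid dendritic cells, did not pass the test. Irf8, a factor shared by monocytes and dendritic cells, was at 244, 152 and 58.1 CPM in pGM and 290, 118, 87.1 and 348 CPM in HPC (-0.48 ± 0.46, adjusted p = 0.65). The list summed to 1303 to 1596 CPM in pGM and 3410 to 7664 CPM in HPC. Whether dendritic cells within the HPC libraries account for any of this was not tested.

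Monocyte and macrophage genes went both ways, with 3 of 20 higher and 5 lower (median 0.18). F13a1, coagulation factor XIII of monocytes, was higher, at 321, 443 and 365 CPM in pGM and 87, 36.4, 21.1 and 43.7 CPM in HPC (3.0 ± 0.51, adjusted p = 0.00013). Lgals3, galectin 3, was lower, at 19.2, 12.6 and 12.3 CPM in pGM and 122, 136, 128 and 188 CPM in HPC (-3.29 ± 0.48, adjusted p = 1.8e-05), as was the lysosomal activator Psap (1055, 858 and 887 CPM, against 3562, 3231, 2074 and 4298 CPM in HPC; -1.82 ± 0.29, adjusted p = 6.3e-05). The groups did not overlap in these 3. Csf1r, the receptor for the monocyte growth factor, was at 251, 148 and 128 CPM in pGM and 165, 123, 96 and 128 CPM in HPC (0.46 ± 0.29, adjusted p = 0.43).

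Mast cell and basophil genes split within the list and within 1 gene cluster: of 16 tested 7 were lower and 2 higher (median -1.21). Tpsb2, a mast cell tryptase, stood at 3.43, 2.26 and 16.8 CPM in pGM, against 645, 466, 1480 and 1002 CPM in HPC (-6.92 ± 1.10, adjusted p = 7.2e-05; -8.29 without W5P). Cma1, mast cell chymase, was at 0.687, 1.3 and 8.58 CPM in pGM and 190, 146, 559 and 174 CPM in HPC (-6.28 ± 1.08, adjusted p = 0.00014; -8.07 without W5P and -5.60 without W4H). W5P was the highest pGM library and W4H the highest HPC library in both. The related tryptase Tpsab1 had 3 counts in the pGM libraries together and 1552 in HPC, a depth-scaled ratio of HPC over pGM of 370 (95% exact interval 126 to 1794, for counting error only), and the IgE receptor chain Fcer1a had 2 and 260 counts (92.9, 25.5 to 771). Reads may be split between the tryptases, and between the Mcpt genes, with some error. Of the list, 2 genes were higher in pGM. They were Ms4a2, the beta chain of the IgE receptor, at 14, 15.8 and 38.9 CPM in pGM and 3.69, 0.968, 1.71 and 1.93 CPM in HPC (3.44 ± 0.58, adjusted p = 0.00011; 2.82 without W5P), and Mcpt8, a basophil protease, at 25.9, 14 and 28.6 CPM in pGM and 7.38, 2.28, 8.37 and 2.77 CPM in HPC (2.11 ± 0.55, adjusted p = 0.011). Cma1, Mcpt4, Mcpt8 and Ctsg all lie on chromosome 14, and the first pair were lower in pGM where the second pair were higher. The list summed to 953 to 1102 CPM in pGM and 1580 to 3330 CPM in HPC, and a part of mast cells in the difference was not tested. Of 10 eosinophil genes Siglecf, a sialic acid receptor, was higher (1.64 ± 0.31, adjusted p = 0.00045) and none lower (median -0.41). The eosinophil granule gene Prg2 was highest in both W5 libraries, at 8.87, 15.7 and 205 CPM in pGM and 8.14, 28.4, 87.8 and 322 CPM in HPC (-0.54 ± 1.13, adjusted p = 0.87).

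Genes of the type I interferon response changed with the identifier as well as with the population. Of 20 tested 4 were lower and none higher (median -1.07) in the fit without the identifier. Without overlap 5 were lower, against 11.8% of all genes. With the identifier as a block 17 of 20 were lower. That fit also held only the 7 compared libraries, so the block and the set of libraries changed together. It called 1480 genes, against 1362 in the fit of 35 libraries and 1220 with the compared groups alone and no block. All 20 were lower in pGM in 3 of 3 pairs, and the share of all genes that were was not counted. Irf7, a transcription factor that amplifies the response, stood at 45.7, 173 and 97.1 CPM in pGM W2, W3 and W5, against 212, 652, 305 and 467 CPM in HPC W2, W3, W4 and W5 (-1.96 ± 0.51, adjusted p = 0.01; with the block -2.11 ± 0.13, adjusted p = 9.3e-05). W3 was the highest library of both populations. Without the block the call of Irf7 was lost without W2P (-1.58, adjusted p = 0.087) or W5P (-1.90, adjusted p = 0.058). Ifi44 was at 1.56, 10.6 and 4.51 CPM in pGM and 15.2, 90.7, 30.5 and 37.2 CPM in HPC (-2.97 ± 0.54, adjusted p = 0.00029; with the block -3.11 ± 0.18, adjusted p = 7.7e-05). Without W3P or W3H the unblocked value of Ifi44 was -3.85 or -2.30.

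Growth and housekeeping lists held few or no called genes. None of 22 DNA replication genes (median 0.21) and none of 22 oxidative phosphorylation genes (median 0.14) passed, against 9.24% of all genes in either direction. In 7 of the DNA replication and 1 of the oxidative phosphorylation genes every pGM library lay above every HPC library, against 7.98% of all genes. The same held for 8 of 20 ribosome biogenesis genes, while 6 of 20 mitosis genes lay wholly below, against 11.8%. Summed levels did not overlap for DNA replication (6550 to 7110 CPM in pGM, 5477 to 5918 CPM in HPC) or ribosome biogenesis (7342 to 8041 and 4931 to 6495 CPM). Of 20 mitosis genes Nusap1, a spindle protein, was lower (129, 154 and 142 CPM in pGM, against 233, 195, 258 and 196 CPM in HPC; -0.64 ± 0.17, adjusted p = 0.012; median of the list -0.16). Nusap1 was no longer called without W4H (adjusted p = 0.064), W2P (0.081) or W5P (0.05). Of 20 ribosome biogenesis genes Dkc1 was higher (0.57 ± 0.18, adjusted p = 0.04, and above 0.05 in 5 of the 7 fits that left out a library), and 4 were with the identifier as a block (median 0.33). Among these 4 was Myc, the growth regulator, at 849, 856 and 645 CPM in pGM and 499, 533, 496 and 347 CPM in HPC (0.74 ± 0.25, adjusted p = 0.061; with the block 0.80 ± 0.12, adjusted p = 0.0041). Of 15 glycolysis genes the glucose transporter Slc2a3 was lower (-1.23 ± 0.38, adjusted p = 0.037; median 0.16; 1 higher with the block), and of 20 genes of the unfolded protein response and secretory pathway the chaperone Calr was higher (0.79 ± 0.22, adjusted p = 0.019; median 0.34). Slc2a3 lost its call without W3H (adjusted p = 0.13), W5H (0.15), W2P (0.2) or W3P (0.14), and Calr without W3H (0.05), W5H (0.058) or W5P (0.12).

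Among the 11 sorting antigens, which the gates may have used and which are therefore no finding, 2 were higher and 2 lower (median -0.15). Ly6a, which encodes Sca-1, was at 6.43, 18.2 and 10.3 CPM in pGM and 90.9, 339, 228 and 249 CPM in HPC (-4.28 ± 0.45), with W2H the lowest HPC library, and Cd34 was lower (-0.69 ± 0.18, adjusted p = 0.012; 0.092 without W5P). Fcgr3, which encodes CD16, was higher by 1.71 ± 0.43 and Itga2b by 1.95 ± 0.39. Of 12 tested hepatocyte genes Hnf4a, a transcription factor of liver, was lower (43.8, 23.4 and 32.7 CPM in pGM, against 75.7, 93.2, 84.9 and 89.8 CPM in HPC; -1.37 ± 0.25, adjusted p = 0.00036) and none higher (median -0.39), and albumin (Alb) was at 1.31 to 6.7 CPM in pGM and 1.89 to 4.33 CPM in HPC. Of 9 stroma and endothelium genes Pecam1 was higher (0.52 ± 0.16, adjusted p = 0.036) and Lyve1, with 1 count in pGM and 56 in HPC, lower (median -0.13). Pecam1 was not called without W5H (adjusted p = 0.12), W2P (0.075), W3P (0.15) or W5P (0.058), nor Lyve1 without any 1 of the pGM libraries (0.069 to 0.14). Of 14 fetal and neonatal genes, Gpc3, a glypican, was higher at 36.7, 38 and 50.1 CPM in pGM and 16.4, 14.5, 10.3 and 18 CPM in HPC (1.49 ± 0.27, adjusted p = 0.00026). Cdkn1c, an inhibitor of the cell cycle, was lower at 1.37, 2.05 and 3.61 CPM in pGM and 5.51, 9.06, 10.9 and 9.82 CPM in HPC (-1.91 ± 0.43, adjusted p = 0.0028), as was Meg3, with 1 count in pGM and 31 in HPC (median of the list -0.35). Meg3 was not called without W3H (adjusted p = 0.094), W5H (0.074), W2P (0.14), W3P (0.15) or W5P (0.05).

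The step in newborn controls was set against the same step in 10 week controls, which asks whether the change into pGM depends on age or tissue. At FDR 0.05, 50 of 14743 genes had a log2 fold change that was higher at P0 than at 10 weeks (0.339%) and 162 one that was lower (1.10%; 1.44% in either direction). Without W3P the total was 128 in place of 212. Of the 162, 83 were lower in pGM at P0 and not called at 10 weeks, 46 were higher in pGM at 10 weeks and not called at P0, and 20 were lower at P0 and higher at 10 weeks. Dendritic cell genes supplied 10 of the 162, monocyte and macrophage genes 7 and class II genes 6, while stem cell and azurophil granule genes supplied none to either side.

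H2-Ab1 averaged 74.8 ± 49.4 CPM in P0 pGM (SD, n = 3) and 1968 ± 787 CPM in P0 HPC (SD, n = 4). The 10 week libraries of the same gene were at 83.5, 78, 121 and 70.2 CPM in pGM and 94.6, 121, 72.2 and 94.4 CPM in HPC (difference of the steps -4.60 ± 0.55, adjusted p = 4e-06). Cst3 was at 817, 704, 909 and 740 CPM in 10 week pGM and 421, 572, 432 and 550 CPM in 10 week HPC, a step in the other direction from P0 (difference -3.34 ± 0.29, adjusted p = 1.1e-08). Lgals3 likewise stood at 10.8, 4.16, 12.1 and 10.5 CPM in 10 week pGM and 1.19, 1.51, 1.36 and 0.863 CPM in 10 week HPC (difference -6.22 ± 0.68, adjusted p = 6.5e-07). Levels in pGM were of the same order at both ages for these 3 genes, and levels in HPC were not. In the 10 week controls of the MLL-ENL (x2) set, which took no part in the test, H2-Eb1 (-2.15 ± 0.32, adjusted p = 9.8e-05), Cd74 (-1.93 ± 0.38, adjusted p = 0.0015) and H2-Aa (-1.67 ± 0.35, adjusted p = 0.0028) were lower in pGM, and the median of the class II list was -0.98, against -0.16 in the set tested and -3.20 at P0. The step of Lgals3 in that set was 0.24 ± 0.50 (adjusted p = 0.83) and that of Cst3 0.28 ± 0.17 (adjusted p = 0.31), so neither reversal was called there.

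Several monocytic genes were called at 10 weeks and not at P0, with a difference between the ages past the test. Ly86, a partner of the Toll-like receptor family, stood at 147, 87.7, 137 and 116 CPM in 10 week pGM and 2.19, 8.39, 4.97 and 13.4 CPM in 10 week HPC (log2 fold change 0.12 at P0 and 4.09 at 10 weeks, difference -3.97 ± 0.55, adjusted p = 3.5e-05). Irf8 was at 152, 177, 343 and 267 CPM in 10 week pGM and 19.4, 23.1, 41.1 and 32.6 CPM in 10 week HPC (-0.48 at P0 and 3.01 at 10 weeks, difference -3.49 ± 0.66, adjusted p = 0.0018). Csf1r stood at 116, 103, 189 and 150 CPM in 10 week pGM and 25.3, 28, 24.3 and 14.7 CPM in 10 week HPC (0.46 at P0 and 2.59 at 10 weeks, difference -2.14 ± 0.41, adjusted p = 0.0023). The newborn HPC libraries lay above every 10 week HPC library in all 3. All 3 were also higher in pGM in the (x2) controls, by 3.71 for Ly86, 2.46 for Irf8 and 2.30 for Csf1r. In the other direction, Igkc (13.35 ± 2.21, adjusted p = 0.00039) and Ighm (3.85 ± 0.63, adjusted p = 0.00034), the kappa and mu immunoglobulin chains, led the genes named for a higher difference. Igkc was at 0.607, 19.9, 0.348 and 40.5 CPM in 10 week pGM and 659, 2979, 1157 and 15754 CPM in 10 week HPC, while at P0 it was at 0.562, 23.2 and 13.8 CPM in pGM and 0.0611 to 0.756 CPM in HPC. The difference of Igkc was 12.53 without W3P. It rests on a 10 week step of -8.38 for Igkc and -2.88 for Ighm, and in the (x2) controls these steps were -3.25 (adjusted p = 0.11) and -0.94 (adjusted p = 0.0028). Without W3P, Pcp4l1 (1.69, adjusted p = 0.36) and Blnk, a B cell adaptor (2.35, adjusted p = 0.36), were no longer called as different between the ages. Blnk was also lost without W2H, W4H, W5H or W5P (adjusted p 0.06 to 0.093), and with the identifier as a block the differences of Blnk (2.62, adjusted p = 0.3), Pcp4l1 (2.99, adjusted p = 0.093) and Ighj1, an immunoglobulin joining segment (3.10, adjusted p = 0.069), were not called.

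**Figure D4:**
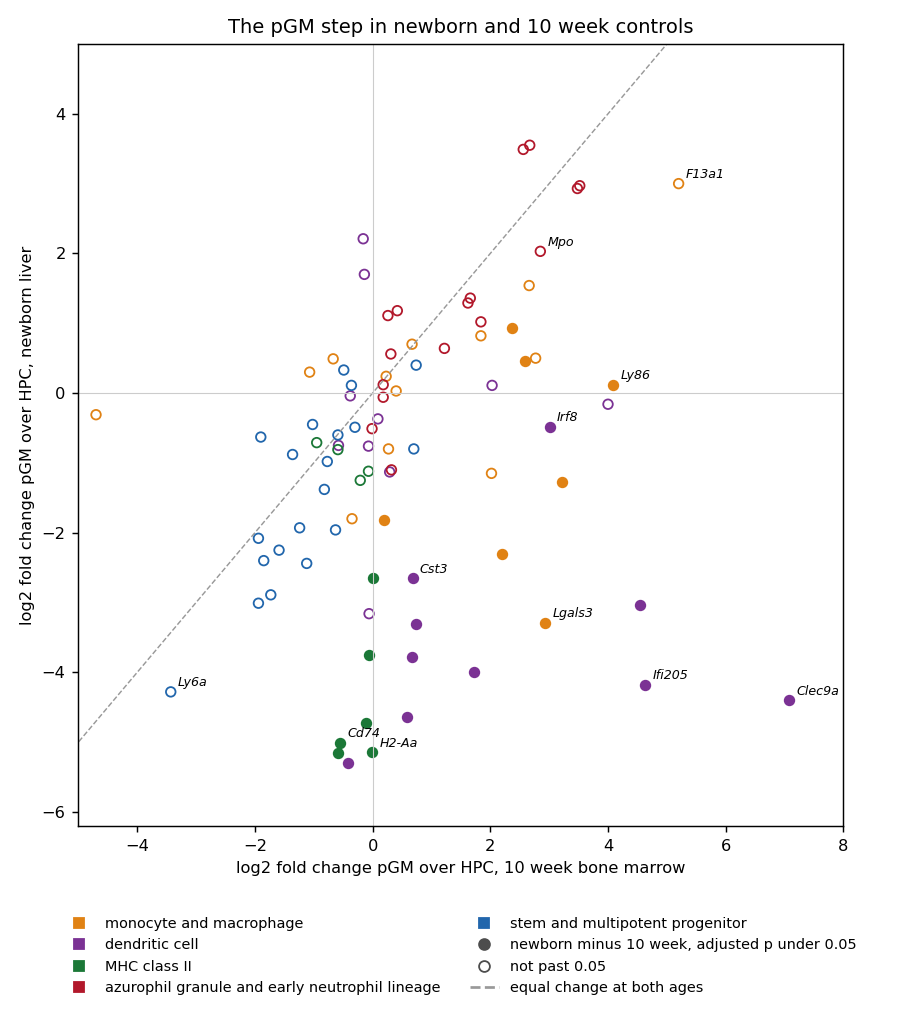
Log2 fold change of pGM over HPC in newborn liver (y axis) against that in 10 week bone marrow (x axis) for the members of 5 gene lists, controls only. Filled points are genes whose 2 log2 fold changes differed at an adjusted p under 0.05; granule and stem cell genes lie along the dashed line of equal change, class II genes below it near an x of 0, and several dendritic cell and monocyte genes below it at right.

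Across all genes the newborn log2 fold changes correlated with those of independent libraries at r = 0.32 for the 10 week controls, 0.52 for the 10 week controls of the MLL-ENL (x2) set (13841 genes) and 0.71 for the P0 MLL-ENL mice, values that describe genes within shared libraries and carry no p. The 10 week step called 3.37% of genes higher and 4.29% lower (7.66% in all), the step in the (x2) set 5.85% and 6.37% (12.2%), and the P0 MLL-ENL step 12.3% and 12.8% (25.1%). The P0 and 10 week control steps called 206 genes higher in common, 39% of those at P0 and 41.4% of those at 10 weeks, and 285 lower, 34.2% and 45.1%, while 23 genes were called in opposite directions. The P0 MLL-ENL step shared 409 of the higher genes, 77.5% of those of the control step and 22.6% of its own, and 636 of the lower ones, 76.3% and 33.7%. No gene was called in opposite directions in these 2 steps.

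The difference between the steps of P0 MLL-ENL and P0 control mice was past FDR 0.05 for 8 genes, 5 higher (0.0339%) and 3 lower (0.0203%; 0.0543% in all), while 1036 genes were at an unadjusted p under 0.05. Cpa3, mast cell carboxypeptidase, was at 69.7, 128, 94.6 and 206 CPM in MLL-ENL pGM and 14.7, 9.31, 23.6 and 17.5 CPM in MLL-ENL HPC, but at 121, 112 and 202 CPM in control pGM and 143, 99.8, 273 and 164 CPM in control HPC (difference 3.16 ± 0.56, adjusted p = 0.0094). Cst3 (1.96 ± 0.29, adjusted p = 0.0013), H2-DMb1 (1.64 ± 0.28, adjusted p = 0.007), H2-DMa (1.55 ± 0.29, adjusted p = 0.017) and Papss2, which makes the sulfate donor (2.98 ± 0.54, adjusted p = 0.012), were the others with a higher step in MLL-ENL. Xdh, xanthine dehydrogenase (-3.69 ± 0.64, adjusted p = 0.007), and Nsmaf (-1.11 ± 0.21, adjusted p = 0.017) had a lower step in MLL-ENL, the third being Mapk4 at a low level. Cst3 stood at 463, 498, 369 and 482 CPM in MLL-ENL pGM and 964, 683, 534 and 750 CPM in MLL-ENL HPC, so its step had the same direction as in controls and a smaller size. The count depended on the fit: 154 with the identifier as a block, 1 with only these 4 groups in the fit, 14 without W2P, 24 without W4H, 5 without W5P and 2 without W3P, where Cst3 alone of the 7 named genes kept its call.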

How the data were processed

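RNA of sorted newborn progenitors was extracted (Qiagen RNeasy micro plus) and amplified into libraries (Clontech SMARTer), per the labels' protocols. The deposited table holds raw counts of reads per gene that the authors made with STAR 3.0.4, Subread and featureCounts 1.4.5, per the submitters' processing notes; which build, gene models and strandedness applied was not given in the sources used here, so reads of overlapping or antisense genes cannot be told apart. Symbols came from GENCODE vM21 (GRCm38) for 40340 of 41388 mouse IDs; IDs without one held at most 0.195% of a library's counts.

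Genes with too few counts for edgeR's filterByExpr were dropped, which left 14743. The remaining counts were scaled by TMM and fitted with edgeR 4.0.16's quasi-likelihood model (R 4.3.3, limma 3.58.1) over 35 libraries, the P0 libraries and the 10 week controls, with groups as the only term. The 10 week MLL-ENL libraries were left out because libraries labelled 73 stood apart in an earlier result of these data and would widen the spread. With them in, at 47 libraries, the newborn step had 1148 genes called in place of 1362. P-values were adjusted by Benjamini-Hochberg over all genes tested and called at 0.05, and all adjusted p in the text are from this test unless another is named. The MLL-ENL (x2) controls were fitted apart, in 21 libraries. Log2 fold changes are pGM over HPC with standard errors. Alternatives were DESeq2 1.42.0, RLE scaling, no filter, 47 libraries, the compared groups alone and each library left out. A fit with the identifier as a block was run as well, also in the compared groups alone. The scripts were tested on simulated data.

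Same-numbered pGM and HPC libraries deviated together (r of deviations from the group mean 0.36, 0.14 and 0.18 over 13490 genes for W2, W3 and W5, against -0.26 to 0.11 between different identifiers), weakly so for W3. Between GMP and HPC the same-number r was 0.33, 0.07, -0.08 and 0.14 for W2, W3, W4 and W5, and between GMP and pGM 0.36, 0.21 and 0.4 for W2, W3 and W5. The numbers were taken as pairs for the 3 of 3 rule and the block. The main fit, which gave the calls, held no pair term, since the labels do not say what an identifier is. No libraries of a group were duplicates: their counts differed by 17.96 to 52.33 chi-square units per degree of freedom. With 11.57 to 16.09 M counts per library, 1 count is less than 0.1 CPM, and intervals given for low counts cover counting error only.

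The genes named are the 15 highest and 15 lowest fold changes (adjusted p under 0.05, mean log2 CPM of at least 1, no overlap, same direction in 3 of 3 pairs, no predicted gene models), up to 4 members of each of 28 gene lists with the smallest p (2 by level where none passed), the 6 highest and 6 lowest differences between steps, and a few fixed genes. Other genes named were chosen after their values were seen. The members and lists were chosen with earlier results of these data known. Promoter windows (RefSeq, GRCm38.p6) were found for 10738 genes tested. A few of the genes that this rule names are not reported here.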

Additional observations from a re-analysis of the deposited data

Results flagged for a closer look

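Among 126 groups of 4 newborn HPC libraries examined, 8 had 1 library far from the other 3, a count near the 1 in 20 that chance gives. The 126 were the 96 genes named for the step, the sums of 28 gene lists, the placement score and the total counts. The gap to the nearest library, as a share of the whole range, was 0.928 for Cldn13 (W2H at 3.81 CPM), 0.847 for Ndufa4l2 (W2H at 1.58 CPM), 0.842 for Ctsg (W2H at 76.1 CPM) and 0.845 for the placement score (W2H at -0.46). It was 0.894 for Cma1 and 0.928 for Tph1, the serotonin-making enzyme of mast cells, with W4H high at 559 and 50.7 CPM. It was 0.885 for Igll1 (W3H high at 21.1 CPM) and 0.982 for Pecam1 (W5H low at 78.2 CPM).

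The log2 fold change of pGM over HPC differed between P0 and 10 weeks, by the test of the difference itself, for 25 of the genes that the naming rule picks. Of these, 12 are the 6 highest and 6 lowest differences, so their passing follows from how they were picked. Over all genes tested the share was 1.44%. Among these 25, the log2 fold change was higher at P0 for Igkc (13.35), Pou2af1 (5.19), Ighm (3.85) and Ighj1 (3.75). It was also higher for Blnk (3.48), Pcp4l1 (3.39), Igsf3 (3.13) and Blvrb (2.59). Ighm stood at 451, 1226 and 691 CPM in P0 pGM and 611, 357, 339 and 308 CPM in P0 HPC, and at 696 to 1035 CPM in 10 week pGM and 2109 to 16522 CPM in 10 week HPC. Igsf3 was higher in pGM at P0 (14.5, 17.4 and 22 CPM, against 7.67, 4.01, 1.53 and 2.43 CPM in HPC) and at 3.81 to 6.76 CPM in 10 week pGM and 8.13 to 10.8 CPM in 10 week HPC. Among the 25, the log2 fold change was lower at P0 for Ifi205 (-8.80), Tlr11 (-7.37), Plbd1 (-7.03), Lgals3 (-6.22) and Klrk1 (-6.05). It was also lower for Gpr141 (-5.27), Naaa (-5.23), Itgae (-4.88), Sult1a1 (-4.63), Id2 (-3.99), Cst3 (-3.34) and Psap (-2.02). The same held for the class II genes H2-Aa (-5.13), H2-Ab1 (-4.60), H2-Eb1 (-4.57), Cd74 (-4.46) and H2-DMb1 (-2.66). Genes named outside the rule had a lower log2 fold change at P0 by the same test as well. They were Clec9a (-11.48), Batf3 (-7.58), Xcr1 (-5.73), Itgax (-4.05), Ly86 (-3.97), Ciita (-3.70), Irf8 (-3.49) and Csf1r (-2.14). The sizes for Clec9a (SE 1.81), Batf3 (1.16), Xcr1 (1.24) and Tlr11 (1.46) rest on levels near the floor. Their means in 10 week HPC were 0, 0.0471, 0.199 and 0.0356 CPM, so these log2 sizes are uncertain. Without W2P the differences of Plbd1, Naaa and H2-Aa were -8.05, -6.38 and -5.87. Plbd1 stood at 18.7, 6.23 and 2.71 CPM in P0 pGM and 132, 91.1, 42.2 and 214 CPM in P0 HPC, and at 3.73 to 16.1 CPM in 10 week pGM and 0.618 to 0.817 CPM in 10 week HPC.

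Between MLL-ENL and control mice at P0 the log2 fold change of pGM over HPC differed for 7 named genes. It was higher in MLL-ENL for Cpa3 (3.16), Papss2 (2.98), Cst3 (1.96), H2-DMb1 (1.64) and H2-DMa (1.55). It was lower in MLL-ENL for Xdh (-3.69) and Nsmaf (-1.11). These are differences of the step and not of the level of a gene. These 7 were named from the genes past this same test, so their passing follows from how they were picked. Xdh stood at 2.1 to 3.31 CPM in MLL-ENL pGM and 14.4 to 21.1 CPM in MLL-ENL HPC, against 2.12, 8.35 and 10.2 CPM in control pGM and 2.4 to 3.79 CPM in control HPC.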

How the results depend on the processing

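The newborn step had 1362 genes past the threshold, 1371 with RLE scaling, 1232 without the filter on low counts, 1504 with DESeq2, 1148 with 47 libraries in the fit, 1220 with only the compared groups, 1480 with the replicate block and 1426 with the block in the 3 pairs alone. Leaving out 1 library gave 881 to 1330. The block shared 1065 of the 1362 genes, RLE scaling 1355, and the fit without W3P 841. Of 1336 alternative values for the 96 genes named in the step none was counted as reversed. Only the 90 genes past the threshold could be counted so. The 15 highest and 15 lowest were picked for no overlap and the same direction in 3 of 3 pairs, so a reversal was unlikely for them. Calls were lost for 2 genes with the block (Cebpa and Pf4), 2 without the filter, 1 with DESeq2 and 5 with only the compared groups. They were also lost for 7 genes with 47 libraries and 60 of 669 times when a library was left out. The cause was not tested. The block changed no other call among the genes that the naming rule picks for the step and that it could fit; Myc, outside that rule, was called with the block alone.

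The difference between P0 and 10 weeks was called for 212 genes, 203 with RLE scaling, 245 without the filter, 317 with DESeq2, 164 with 47 libraries, 194 with only the compared groups, 315 with the block, and 128 to 249 with 1 library left out. The difference between MLL-ENL and control at P0 was the least stable. It was called for 8 genes, and for 14 without the filter, 65 with DESeq2, 1 with only the compared groups, 154 with the replicate block and 2 to 24 with 1 library left out; the cause was not tested. All 8 genes were among those 154, 65 and 14. With 3 pGM libraries, each one left out leaves 2 to carry a group.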

Other observations

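Adhesion and chemokine receptors went both ways, with 5 of 20 higher and 6 lower in newborn pGM (median -0.49). Cxcr2, the receptor for neutrophil chemokines, stood at 46.9, 25.2 and 41.5 CPM in pGM and 21.8, 10.2, 12 and 12.5 CPM in HPC (1.42 ± 0.31, adjusted p = 0.0019). Itga4, the alpha chain of VLA-4, was at 189, 173 and 160 CPM in pGM and 120, 120, 65.1 and 110 CPM in HPC (0.74 ± 0.17, adjusted p = 0.003). Itgb2, the beta chain of the leukocyte integrins, was lower, at 107, 94.9 and 103 CPM in pGM and 333, 243, 253 and 314 CPM in HPC (-1.49 ± 0.31, adjusted p = 0.0015). The groups did not overlap in any of these 3. Emcn, endomucin, which marks endothelium and early progenitors, was lower too (-1.65 ± 0.36, adjusted p = 0.0021).

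Of 16 immediate early genes, which respond within minutes to a stimulus, 2 were lower in pGM (median -0.69), and 6 with the identifier as a block. Klf6 stood at 40, 46.3 and 54.5 CPM in pGM and 133, 203, 133 and 210 CPM in HPC (-1.85 ± 0.29, adjusted p = 4.7e-05). Dusp1, a phosphatase, was at 1.87, 2.19 and 2.63 CPM in pGM and 6.97, 11.7, 4.09 and 18.3 CPM in HPC (-2.19 ± 0.68, adjusted p = 0.037). Dusp1 was no longer called when W3H, W5H or any 1 pGM library was left out (adjusted p 0.073 to 0.15).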
